A study of Oryza sativa with 2 samples.

Results

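Starch synthesis in young rice endosperm was read here through every probe set that the array's annotation assigns to exactly 1 of 5 genes: GBSSI (LOC4340018), SSI (LOC9269493), SSIIa (LOC4340567), BEI (LOC4342117) and AGPS2 (LOC4345339). These are 5 of 17905 genes with a probe set of their own, and they have 18 of the 22436 probe sets listed for a single gene. A probe set is a group of short oligonucleotides that together give 1 signal for 1 target sequence. The tissue was endosperm of the japonica cultivar Zhonghua11, untreated, picked by hand at 2 days after pollination, when the nuclei divide in a common cytoplasm that has not yet formed cells. There was 1 group of 2 samples with 1 Affymetrix array each, called array 1 and array 2, and the study set out to record what this stage expresses. Without a second tissue, stage or genotype there was no condition to test, and no profile to which other genes could be matched. Whether separate plants gave the samples is not stated in the labels, and the spread between the arrays may be technical.

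Starch is a mixture of amylose, which is nearly linear, and amylopectin, which is branched, and both are built from ADP-glucose. ADP-glucose pyrophosphorylase makes this donor from glucose 1-phosphate and ATP, starch synthases add its glucose to growing chains, and branching enzymes cut chains and rejoin them as branches. In cereal endosperm most of this takes place later, during grain filling, when starch becomes the main reserve of the seed.

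The number of probe sets differed widely between the genes. BEI had 8 and GBSSI 6, SSIIa had 2, and SSI and AGPS2 had 1 each. In the RefSeq gene table of assembly ASM3414082v1, GBSSI has 9 transcripts, BEI 5, AGPS2 2, and SSI and SSIIa 1 each. There GBSSI, SSI, SSIIa and BEI lie on chromosome 6 and AGPS2 on chromosome 8. Probe sets of a gene are not independent readings of it. One GBSSI pair and one BEI pair were each designed on the same source sequence, and 4 of the 6 GBSSI and 6 of the 8 BEI probe sets carry the same sequence cluster number in their names. The name's ending describes the probes: _at marks probes meant for 1 transcript, _a_at for several transcripts of 1 gene, _s_at for several genes, and _x_at a set with some probes that also match other sequences. Of the 18, 9 ended in _at, 5 in _x_at, 3 in _a_at and 1 in _s_at.

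The 18 signals fell into a bright and a dim set with a wide space between them. All 5 genes had at least 1 bright probe set: 11 probe sets lay between 3972 and 19457 on array 1 and between 2681 and 18652 on array 2. The other 7 read at most 158 on array 1 and at most 93.0 on array 2. Background, the 95th percentile of 64 probe sets against reporter sequences, was 52.7 on array 1 and 37.9 on array 2. Above it on both arrays were 13 of the 18 (72.2%), against 70.9% of all rice probe sets with 1 gene listed, so as a share detected the starch probe sets were close to the rest. Of the 5 that were not, 1 belonged to GBSSI, 1 to SSIIa and 3 to BEI. A signal of at least 1000 on both arrays was read by 11 of 18, against 30.7% of probe sets with 1 gene listed. Among the brightest 5% of rice probe sets on both arrays were 8 of 18, against 10.5%. In mean log2 signal the 18 had a median of 11.86, and all probe sets with 1 gene listed had one of 8.17. The limit of 1000 was set after the values were seen and falls in the space between the bright and the dim set. The genes too were chosen with earlier results of these data known. These counts describe the signals and were not tested.

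**Figure D1:**
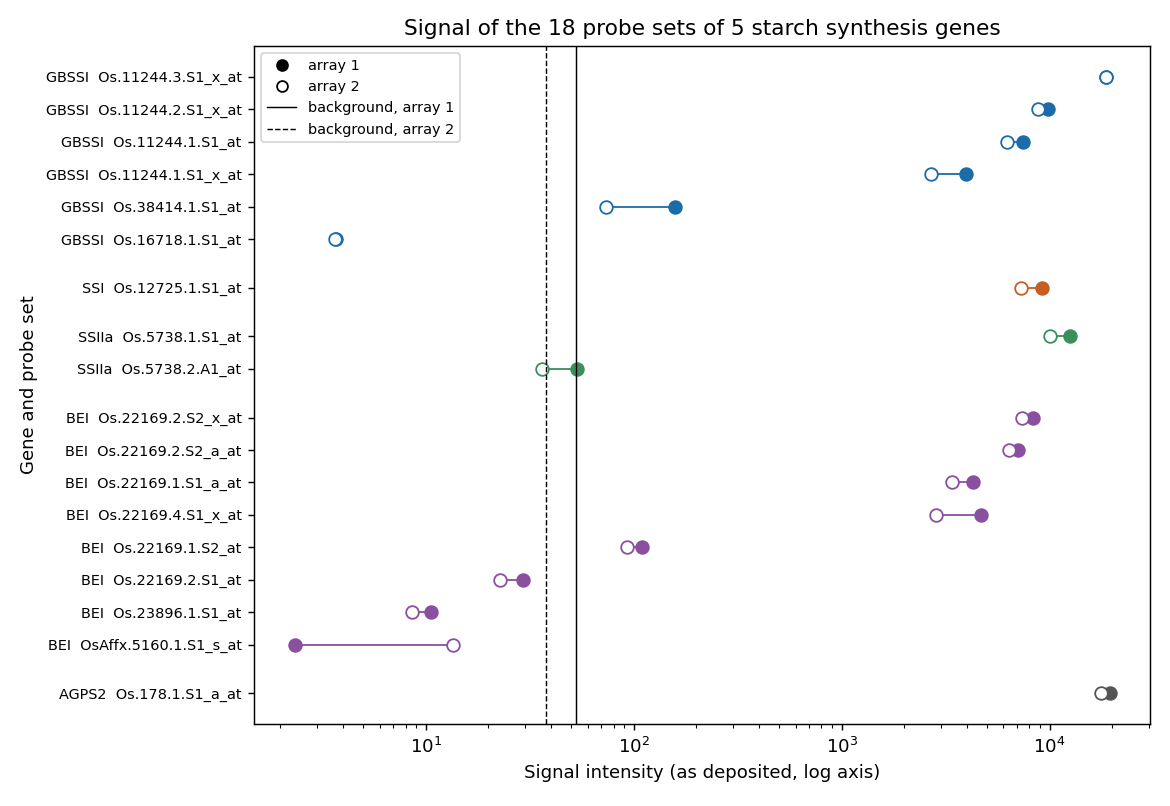
Signal intensity on a log axis for each probe set (rows, grouped by gene), with array 1 as filled and array 2 as open circles and each array's background as a vertical line. The 11 bright probe sets lie at 2681 or above on both arrays, the other 7 at 158 or below, and GBSSI, SSIIa and BEI have members in both places.

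AGPS2 encodes a small subunit of ADP-glucose pyrophosphorylase and is known for splice forms whose proteins go to the plastid or the cytosol. Its 1 probe set, Os.178.1.S1_a_at, read 19457 on array 1 and 17686 on array 2, a mean log2 signal of 14.18 ± 0.10 (SD, n = 2). Its ending marks probes common to several transcripts of the gene, so the splice forms cannot be told apart from this signal. It was brighter than 99.6% of rice probe sets on array 1 and 99.4% on array 2.

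GBSSI, the product of the waxy gene, makes amylose while bound to the starch granule. Its brightest probe set, Os.11244.3.S1_x_at, read 18589 on array 1 and 18652 on array 2 (14.18 ± 0.00, log2, SD, n = 2), the closest match between the arrays among the 11 bright probe sets. Os.11244.2.S1_x_at read 9875 and 8837 on arrays 1 and 2. All 4 probe sets of cluster Os.11244 were bright, while the 2 from other clusters were not. Os.11244.1.S1_at read 7421 and 6230, and Os.11244.1.S1_x_at, designed on the same source sequence, read 3972 and 2681. The first of this pair was thus 1.87 times the second on array 1 and 2.32 times on array 2. Of the 2 outside the cluster, Os.38414.1.S1_at read 158 and 73.9, above background but below the highest reporter on array 2 (98.7). Os.16718.1.S1_at was far below background, at 3.71 and 3.68. The order of the 6 probe sets was the same on both arrays.

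SSI and SSIIa are soluble starch synthases that lengthen amylopectin chains, SSI the shorter and SSIIa the intermediate ones, and SSIIa is known in rice as the ALK gene, which is tied to the temperature at which starch gelatinizes. The 1 probe set of SSI, Os.12725.1.S1_at, read 9222 on array 1 and 7317 on array 2 (13.00 ± 0.24, log2, SD, n = 2). Os.5738.1.S1_at of SSIIa read 12575 and 10038 (13.46 ± 0.23, log2, SD, n = 2). The other probe set of SSIIa, Os.5738.2.A1_at, belongs to the same cluster and is the 1 probe set of the 18 whose name holds A in place of S, a letter that on Affymetrix arrays refers to the orientation of the design sequence. It read 53.2 on array 1, just above background, and 36.1 on array 2, just below it. Read through this probe set alone, SSIIa would stand at the background level.

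BEI is a branching enzyme that acts on amylose-like chains, and its probe sets also read very different levels. Os.22169.2.S2_x_at read 8278 on array 1 and 7385 on array 2 (12.93 ± 0.12, log2, SD, n = 2), and Os.22169.2.S2_a_at, from the same source sequence, 7058 and 6358. This pair lay close together, the first 1.17 times the second on array 1 and 1.16 times on array 2. Os.22169.1.S1_a_at read 4284 and 3384, and Os.22169.4.S1_x_at 4694 and 2832, so these 2 changed places between the arrays. Cluster membership did not separate bright from dim here. Os.22169.1.S2_at, of the same cluster, read 109 and 93.0, and Os.22169.2.S1_at 29.5 and 22.8, below background. Outside the cluster, Os.23896.1.S1_at read 10.6 and 8.63, and OsAffx.5160.1.S1_s_at 2.35 and 13.6. All 4 bright BEI probe sets ended in _a_at or _x_at, and none of its 3 _at probe sets reached a signal of 1000.

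Over all 5 genes, each of the 8 probe sets ending in _a_at or _x_at was bright, against 3 of the 9 ending in _at. Over all probe sets with 1 gene listed, a signal of at least 1000 on both arrays was read by 42.0% of 1266 _a_at, 25.2% of 1972 _x_at and 30.1% of 18011 _at probe sets. This is a description of few probe sets from 5 genes, and it was not tested. Because an _x_at set can take up signal from related sequences, the GBSSI and BEI values read only through such sets may hold signal from other transcripts. For GBSSI, Os.11244.1.S1_at was bright with no such ending, and for BEI the 2 _a_at sets were.

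The distance between the highest and the lowest probe set of a gene, on the mean log2 scale, was 12.30 for GBSSI, 10.43 for BEI and 8.003 for SSIIa. The lowest probe set of each was not above background on both arrays, where signals have no order, so these are not exact sizes. With signals below an array's background set to that background, the distance was at least 8.70 for GBSSI, 7.45 for BEI and 7.97 for SSIIa. It is no difference in transcript amount, since probe affinity and position on the transcript vary. Other genes had wide distances too. With the same floor, the median was 3.69 over the 46 genes with 5 or more probe sets, and GBSSI exceeded 91.3% and BEI 87.0% of them. Only 13 genes had 6 probe sets and 2 had 8, GBSSI and BEI among them, so they were set against this pooled class. Over the 2606 genes with 2 probe sets the median was 1.40, and SSIIa exceeded 99.3% of them. For GBSSI and BEI the floored distance is that of the highest probe set from background, and for SSIIa it is nearly so. The other genes were not matched for the level of their highest probe set, and some lay wholly at the floor. These shares thus largely restate how bright the highest probe sets were, and do not show unusual disagreement between probe sets. An actin control of the arrays gave 13.1 (array 1) and 13.7 (array 2) times as much signal near the transcript's 3' end as near its 5' end. For GAPDH these ratios were 3.55 and 4.45, while cyclophilin moved the other way, with 3.51 and 2.99. Another actin control differed more between the arrays. Its 3' _at probe set read 15065 on array 1 and 21381 on array 2, its 3' _s_at probe set 24893 and 24946, and its 5' probe set 1135 and 1017. Another GAPDH control was dim, with its 5' probe set below background on both arrays. Where the starch probe sets lie along their transcripts is not known from the annotation, so the part of this 3' excess in their distances was not tested.

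**Figure D2:**
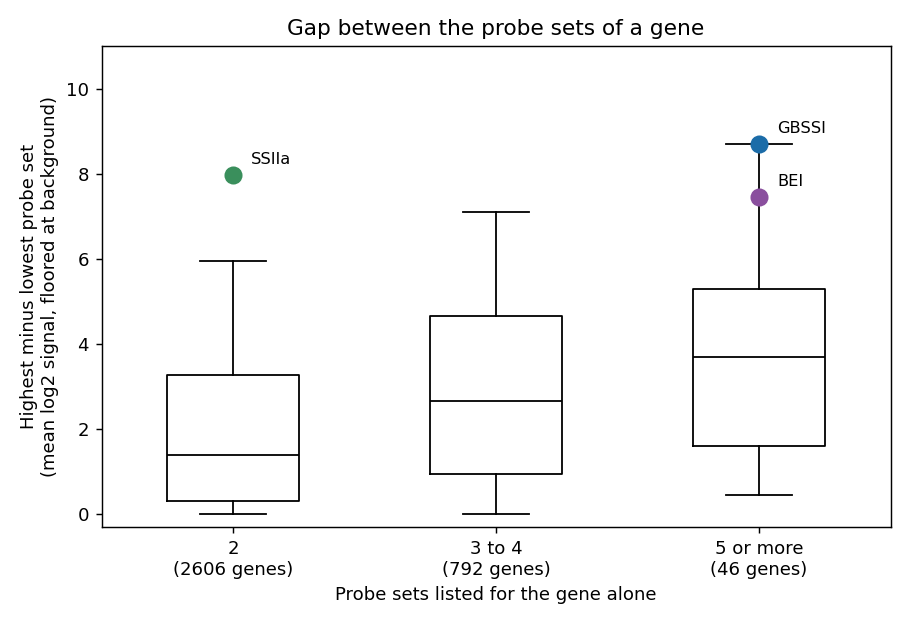
Highest minus lowest probe set of a gene in mean log2 signal, with signals below background set to it, for genes with 2, 3 to 4 and 5 or more probe sets (boxes show the quartiles and median, whiskers reach the outermost gene within the 5th to 95th percentile). SSIIa (7.97) lies above the whisker of the genes with 2 probe sets, whose median is 1.40, and BEI (7.45) and GBSSI (8.70) lie above the box of the pooled class of 5 or more, whose median is 3.69. The genes were not matched for the level of their highest probe set.

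Nearly all starch probe sets read lower on array 2 than on array 1. Of the 13 above background, 12 were lower on array 2, against 56.2% of all 24467 rice probe sets above background, and the median log2 difference, array 2 minus array 1, was -0.25 against -0.04. Of the 11 bright ones, 10 were lower, against 46.6% of 8362 rice probe sets with a signal of at least 1000 on both arrays, whose median difference was 0.01. The 1 exception was Os.11244.3.S1_x_at of GBSSI, with a difference of 0.00, or -0.067 after quantile normalization. GBSSI and BEI gave 5 each of the 13, so the 13 are not 13 independent readings. By gene, all bright probe sets were lower on array 2 in 4 of the 5 genes, all but GBSSI. Each difference is taken within a probe set, so no probe set's level is set against another's. The arrays are replicates of 1 group, so this is spread between samples and no effect of a condition. In RNA from a whole tissue, fewer cells of a type, or fewer nuclei where cells have not formed, and less RNA from each cannot be told apart. The 3' to 5' ratios above moved with the arrays as well, up for actin and GAPDH and down for cyclophilin on array 2, and their part in the difference was not tested.

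Probe sets of a gene did not share 1 size of difference. For GBSSI it followed the level: 0.00 for Os.11244.3.S1_x_at, -0.16 for Os.11244.2.S1_x_at, -0.25 for Os.11244.1.S1_at, -0.57 for Os.11244.1.S1_x_at and -1.10 for Os.38414.1.S1_at, from the brightest to the dimmest above background. The last value rests on a dim signal, below the highest reporter on array 2 (73.9 against 98.7). The median difference of rice probe sets of like signal also fell, from 0.062 at Os.11244.3.S1_x_at to 0.011 at Os.11244.1.S1_x_at and -0.131 at Os.38414.1.S1_at. Their 5th percentile went from -0.124 to -0.228 and -0.871. The part of this general fall in the GBSSI order was not tested. For BEI, the 2 probe sets from 1 source sequence differed by -0.16 and -0.15, Os.22169.1.S1_a_at by -0.34, Os.22169.4.S1_x_at by -0.73 and the dim Os.22169.1.S2_at by -0.24. All 5 BEI values had the same sign, while their sizes did not follow the level throughout. SSI and SSIIa, read through 1 bright probe set each, were close to each other at -0.33 and -0.33. AGPS2 differed by -0.14.

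Against rice probe sets of like signal, in steps of 0.5 on the log2 scale, 8 of the 13 lay below the 5th percentile of the difference, against 5.04% of all those probe sets. They were Os.11244.1.S1_at, Os.11244.1.S1_x_at and Os.38414.1.S1_at of GBSSI, Os.22169.1.S1_a_at and Os.22169.4.S1_x_at of BEI, and the single probe sets above background of SSI, SSIIa and AGPS2. AGPS2 was close to the limit, at -0.138 against -0.124. The 5 others lay between the 5th percentile and the median of their step. The count depends on what the probe sets are set against. Among all rice probe sets above background, whose dim members vary widely, 2 of the 13 were in the lowest 5%. Among those with a signal of at least 1000, 6 of the 11 bright ones were, and AGPS2 was not, with 16.2% of them below it. Probe sets of a gene measure the same RNA, so the 8 are not 8 independent readings.

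**Figure D3:**
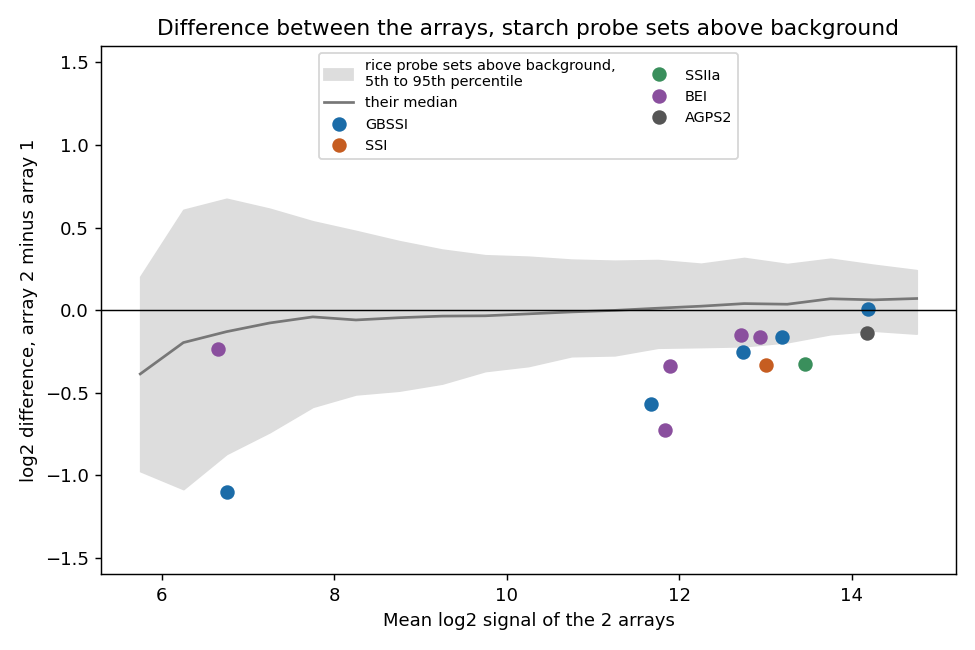
log2 difference, array 2 minus array 1, against mean log2 signal for the 13 starch probe sets above background on both arrays, coloured by gene, over the median (grey line) and the 5th to 95th percentile (grey band) of all rice probe sets above background. Of the 13 points, 12 lie below 0 and 8 below the band, and the GBSSI points go down from 0.00 at the brightest to -1.10 at the dimmest.

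Few other genes of starch metabolism were read here, since most found no match by symbol or synonym. Of 24 further genes of the pathway, 5 matched the gene table and 4 of these had a probe set of their own. The disproportionating enzymes, which transfer glucan chains, were bright: DPE1 of the plastid read 4349 on array 1 and 3754 on array 2, and DPE2 of the cytosol 6694 and 5567. SSIIc, a relative of SSIIa, read 700 and 656. All 3 were lower on array 2, as were 56.2% of rice probe sets above background, with log2 differences of -0.21 for DPE1, -0.27 for DPE2 and -0.09 for SSIIc. Of these, DPE2 alone lay below the 5th percentile of rice probe sets of like signal. SSIIb, the form of SSII known from rice leaves, was not above background on both arrays in any of its 3 probe sets, whose signals ran from 17.6 to 70.9 on array 1 and from 1.58 to 83.6 on array 2. The other 20, among them the large subunits of ADP-glucose pyrophosphorylase, SSIIIa, BEIIb and PUL, were not analysed here. For those without a match, this does not show that the array lacks probe sets for them.

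Both genes listed as endosperm markers were bright and higher on array 2. Of all rice probe sets with a signal of at least 1000 on both arrays, only 46.6% were lower on array 2. NF-YB1, a transcription factor gene of the endosperm, read 2546 on array 1 and 3100 on array 2, and fie, a Polycomb gene that the table does not assign to FIE1 or FIE2, 7729 and 8461. With that assignment open, fie cannot be taken as a marker of the endosperm alone. The log2 differences of NF-YB1 and fie, 0.28 and 0.13, lay below the 95th percentiles of rice probe sets of like signal, 0.30 and 0.32. Of 4 marker genes of the seed coat, nucellus and embryo, MADS29 (305 and 339) and MADS21 (144 and 117) were above background on both arrays, while MADS13 (46.1 and 41.3) and both probe sets of the embryo meristem gene OSH1 were not. The summed signal of these 4, each by its brightest probe set, was 514 on array 1 and 532 on array 2. Without OSH1, which was below background on both arrays, it was 495 and 498. The part of such tissue in the starch signals was not tested.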

How the data were processed

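The values are signal intensities per probe set and array as deposited by the authors, on a linear scale, and MAS5 is named per the submitters' processing notes. For its version and settings, the sources used here give nothing. Each array's mean after trimming 2% at either end was 499.9, the mark of scaling array by array. Median signals were 42.1 and 33.4 on arrays 1 and 2. Values were used without further normalization, as log2, and their precision is limited by the number of arrays and, for dim probe sets, by a wider spread between arrays.

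Genes came from the platform annotation of 2016. All single-gene probe sets of the 5 genes were kept and are all named. The further genes were matched by symbol or synonym and chromosome. Every count over probe sets used the whole table. With 1 group no test between groups was made. The members and lists were chosen with earlier results of these data known, and the signal limit of 1000, the steps of 0.5 and the floor at background after the values were seen. Alternatives were another background, quantile normalization, an offset of 16, other probe set choices and single arrays. Calls against background, differences between arrays and quantile normalization were tested on simulated data. The distances between probe sets and the percentiles in steps of 0.5 were not. Such tests check the calculation, and the calls of starch probe sets close to background are not settled by them. Python 3.11.15, pandas 2.3.3, NumPy 2.4.6 and matplotlib 3.10.9 were used.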

Additional observations from a re-analysis of the deposited data

How the results depend on the processing

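The count of 13 starch probe sets above background was 11 with the highest reporter as background, 16 with the median reporter, 13 after quantile normalization, 8 without _s_at and _x_at probe sets, and 13 and 14 on array 2 and array 1 alone. The 8 are out of the 9 _at and 3 _a_at probe sets, not out of 18. Over all probe sets with 1 gene listed, 69.5% of _at and 85.2% of _a_at were above background on both arrays. For the other settings no share over all probe sets was made. Lower on array 2 were 12 of 13 probe sets, 13 of 13 after quantile normalization, where Os.11244.3.S1_x_at too was lower (-0.067), 10 of 11 with the highest reporter as background or a signal of at least 1000, and 8 of 8 without _s_at and _x_at probe sets. Their median difference ran from -0.30 after quantile normalization to -0.22 with the arrays centred on rice probe sets above background. No alternative turned its sign. The distance between probe sets depends on the dim ones: with an offset of 16 it was 9.89 for GBSSI, 7.55 for SSIIa and 8.39 for BEI, with signals floored at background, an alternative added after the data were seen, 8.70, 7.97 and 7.45, with only probe sets above background 7.43 for GBSSI and 6.28 for BEI, and on single arrays 12.29 to 12.31, 7.89 to 8.12 and 9.74 to 11.78 for these 3 genes. With the median over a gene's probe sets in place of the highest, the level was 12.20 for GBSSI, 9.45 for SSIIa and 9.24 for BEI. On single arrays the highest probe set read 14.18 and 14.19 for GBSSI, 12.84 and 13.17 for SSI, 13.29 and 13.62 for SSIIa, 12.85 and 13.02 for BEI, and 14.11 and 14.25 for AGPS2. No paired analysis was possible because there is 1 group. Below background, at 52.7 and 37.9 on arrays 1 and 2, signals have no order.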
